A study of Mus musculus with 12 samples.

Results

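The genes described here handle cholesterol in fat tissue, from its synthesis to its removal from the cell. The set holds 32 genes chosen by name for their place in the pathway, of 25229 named genes in the count table. They fall into 18 enzymes of sterol synthesis, 4 genes that control the transcription factor SREBP2, and 5 genes of uptake, intracellular transport and esterification. The last 5, of efflux, are Abca1, Abcg1, Apoe and the LXR receptor genes Nr1h3 and Nr1h2. Every member was listed in the table, and 32 of 32 passed the filter on low values, which left 15597 genes for testing.

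RNA was sequenced from epididymal white adipose tissue (eWAT, the fat pad beside the epididymis) of C57BL/6 mice, with 12 libraries in 4 groups of 3. The HFD_TKO group holds TET knockout mice on a high-fat diet, and the HFD_WT group wild-type mice on the same diet. The ND_TKO group holds TET knockout mice on a normal diet, and the ND_WT group wild-type mice on the normal diet. TET enzymes oxidise methylated cytosine in DNA, and the study's title places their loss in adipocytes. Which TET genes were removed, by which alleles and which Cre driver, and the sex, age and length of feeding are not given in the sources used here. The tissue was taken whole, so its RNA comes from adipocytes and every other resident cell, and the other cell types may still carry intact TET genes. The labels' protocols call the 3 samples of each group biological replicates.

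Cells make cholesterol from acetyl-CoA through mevalonate and squalene. When sterol in the endoplasmic reticulum is low, SCAP carries SREBP2 to the Golgi for cleavage and SREBP2 then switches on the synthesis genes, while the INSIG proteins hold it back when sterol is plentiful. Oxysterols activate the LXR receptors, which switch on efflux transporters such as ABCA1 and ABCG1. White adipose tissue is known as a large store of free cholesterol, kept mainly in the membranes and lipid droplets of adipocytes, and its macrophages take up and export lipid as fat cells enlarge.

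Libraries held 20973140 to 25606629 assigned reads, so that 3 reads equal 0.117 to 0.143 CPM (reads of a gene scaled to the library total). Adipoq and Plin1, adipocyte genes that mark the labelled tissue, were present in every library, at 1349 to 6448 CPM for Adipoq and 549 to 1422 CPM for Plin1. In whole-gene counts no gene of the targeted family passed the test as lower with the TKO label. Tet1 had 1.65 to 3.07 CPM in HFD_TKO, 0.841 to 0.996 in HFD_WT, 2.22 to 2.98 in ND_TKO and 0.415 to 1.48 in ND_WT, and was higher in TKO on both diets. Tet2 and Tet3 did not pass the test between genotypes on either diet, though on HFD every TKO library lay below every WT library for both. Tet2 had 9.54 to 13.4 CPM in HFD_TKO and 13.7 to 17.8 in HFD_WT (log2 change -0.47, adjusted p = 0.066). Tet3 had 58.9 to 62.4 CPM in HFD_TKO and 64.6 to 71.7 in HFD_WT (-0.18, adjusted p = 0.13). On ND their changes were -0.06 and 0.22. These counts do not separate exons or cell types, so the genotype labels were not checked by them and the directions below rest on the labels. HFD_TKO replicate 1 had the highest value of all 12 libraries for 14 of the 18 synthesis genes, and values without it are given for the counts and for the calls or sizes it changes most. Of the 15 synthesis genes called higher with HFD in TKO, 12 stayed called without it. Over all tested genes, the count called higher there went from 2525 to 1915. Differences are log2 changes of CPM + 1 from one limma fit over all libraries, and a gene is called when its p, adjusted over all 15597 genes by the Benjamini-Hochberg method, is under 0.05.

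The members differed widely in level. Per kilobase of exon, Apoe, the apolipoprotein that carries cholesterol out of cells, was the highest, with a mean over the 4 groups of 1451 CPM per kb. Npc2, a lysosomal cholesterol carrier, followed at 170 CPM per kb, then Hmgcs1 at 84.1 and Insig1 at 79.3 CPM per kb. Tm7sf2, a sterol reductase of the later steps, was the lowest at 1.84 CPM per kb. Counting used whole genes, so reads in exons shared by neighbours are uncertain, because strand use is not given in the sources used here. The largest such overlaps were 774 bases of Fdft1 with Ctsb on the opposite strand and 532 bases of Tm7sf2 with Vps51 on the same strand.

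Promoter letters of the synthesis genes are shown because these genes moved together with diet. RefSeq promoter windows on GRCm38.p6, 250 bases before to 50 after the annotated start, were matched for 26 of 32 members. The CCAAT box bound by NF-Y, a factor known to work with SREBP2, was searched on either strand. Genes with several windows were counted when any of their windows held the motif. The box was found in 14 of the 15 matched synthesis genes, 3 of 4 SREBP2-control genes, 3 of 3 uptake genes and 0 of 4 efflux genes. Among all 27025 genes with a window, 41.058% held it. The sterol regulatory element TCACNCCAC was found in Hmgcs1 alone of the 26 members and in 1.436% of all genes. The LXR element, searched as GGTNA and GGTCA parted by 5 unspecified bases, was found in Abca1 alone of the 26 and in 0.226% of all genes. The E-box CACGTG lay in 6 members and in 8.093% of all genes. A match is a description of these letters and not of a bound site, and a window without one says nothing about the factor. In the stretches below, read 5′ to 3′ on the gene's own strand, capitals mark CCAAT or its reverse complement ATTGG, the sterol regulatory element of Hmgcs1 and, in Abca1, the reverse complement of the LXR element. No marked motifs overlap, and the E-box of Sc5d is left in lower case. The Hmgcs1 stretch lies at chr13:119690161-119690350 on the plus strand. On the minus strand lie those of Mvd (chr8:122443423-122443532), Ebp (chrX:8193513-8193622), Sc5d (chr9:42264301-42264410) and Abca1 (chr4:53159896-53160005), all of them upstream of any annotated exon base.
Hmgcs1: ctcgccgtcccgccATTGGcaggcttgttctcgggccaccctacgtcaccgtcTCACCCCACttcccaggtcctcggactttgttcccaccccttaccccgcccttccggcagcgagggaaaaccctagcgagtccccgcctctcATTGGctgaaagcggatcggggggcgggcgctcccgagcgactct
Mvd: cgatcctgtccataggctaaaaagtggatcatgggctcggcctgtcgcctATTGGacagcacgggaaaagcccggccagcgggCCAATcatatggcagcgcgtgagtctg
Ebp: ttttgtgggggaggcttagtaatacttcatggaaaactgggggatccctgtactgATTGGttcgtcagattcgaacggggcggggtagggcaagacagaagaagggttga
Sc5d: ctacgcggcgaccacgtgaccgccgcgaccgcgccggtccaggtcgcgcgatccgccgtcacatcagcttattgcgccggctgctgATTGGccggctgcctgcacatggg
Abca1: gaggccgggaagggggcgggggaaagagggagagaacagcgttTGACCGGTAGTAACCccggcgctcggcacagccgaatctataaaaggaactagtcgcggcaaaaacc

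High-fat feeding went with higher RNA of most synthesis enzymes in both genotypes. Of the 18 synthesis genes, 15 were higher and 0 lower in HFD_TKO than in ND_TKO, with a median log2 change of 1.02. Across all tested genes in that comparison, 22.1% were called, 16.2% higher and 5.9% lower. In WT mice 13 synthesis genes were higher and 1 was lower in HFD_WT than in ND_WT, with a median of 0.99, where 58.1% of all tested genes were called, 37.8% higher and 20.3% lower. The median change over all tested genes was 0.07 in TKO and 0.13 in WT. All 13 genes called higher in WT were also among the 15 called higher in TKO. These diet comparisons share no libraries, but they come from the same fit with a shared estimate of spread. The share of all tested genes called higher in both was not counted. CPM were also rescaled by TMM, a method that assumes most genes do not change. The synthesis counts were then 14 higher and 1 lower in TKO and 11 higher and 1 lower in WT. All tested genes split into 1520 higher and 1394 lower in TKO (2525 and 921 without TMM). In WT they split into 4550 higher and 4395 lower (5892 and 3173 without TMM). In TKO the count of synthesis genes called higher fell to 12 when HFD_TKO replicate 1 or ND_TKO replicate 2 was left out, and to 10 when ND_TKO replicate 3 was. Over all tested genes the count called higher fell as well, from 2525 to 1915, 2122 and 1256 in the same sequence.

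The makeup of the tissue moved with diet as well. With HFD, 8 of 12 adipocyte markers fell and 1 rose in TKO, and 11 fell and 1 rose in WT. Of 12 macrophage markers 8 rose in TKO and 11 rose in WT. Summed adipocyte markers were 28656 to 31010 CPM in HFD_TKO and 16546 to 17945 in HFD_WT, against 38624 to 44252 in ND_TKO and 38957 to 50544 in ND_WT. In bulk tissue fewer cells of a type and less RNA per cell cannot be told apart, and the part of either marker group in the synthesis results was not tested.

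Among the early steps, Hmgcs1 was called higher with HFD in both genotypes. Hmgcs1, the enzyme that condenses acetoacetyl-CoA and acetyl-CoA into HMG-CoA (chromosome 13, 119690379 to 119708260, mm10), had 945, 419 and 441 CPM in HFD_TKO and 598, 572 and 446 in HFD_WT, against 311, 227 and 233 in ND_TKO and 129, 117 and 198 in ND_WT. Every HFD library lay above every ND library. The log2 change with HFD was 1.13 in TKO (SE 0.29, adjusted p = 0.017) and 1.88 in WT (SE 0.29, adjusted p = 0.00015). Its TKO value was 0.75 without HFD_TKO replicate 1, and the TKO call was lost without ND_TKO replicate 2 (adjusted p = 0.055) or replicate 3 (adjusted p = 0.067). The promoter of this gene is the one printed above with both a sterol regulatory element and CCAAT boxes.

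Acat2, the thiolase that makes acetoacetyl-CoA, did not follow Hmgcs1. It had 128, 97.2 and 88.4 CPM in HFD_TKO and 86.7, 84.5 and 63.7 in HFD_WT, against 92.2, 115 and 111 in ND_TKO and 132, 131 and 92.0 in ND_WT. With HFD its change in TKO was -0.03 (adjusted p = 0.92), and in WT it fell by 0.58 (adjusted p = 0.014), the single synthesis gene called lower. The WT call was lost without HFD_WT replicate 3, ND_WT replicate 1 or ND_WT replicate 2, with adjusted p between 0.052 and 0.063. Acat3, a close paralogue, is listed beside it, and how reads shared by such copies were assigned is not given in the sources used here.

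Of the mevalonate kinases, Pmvk differed between genotypes in its response to diet. Mvk, mevalonate kinase, had 35.8, 27.6 and 29.2 CPM in HFD_TKO and 23.5, 23.3 and 25.015 in HFD_WT, against 18.8, 15.4 and 19.4 in ND_TKO and 19.9, 16.6 and 26.6 in ND_WT. Pmvk, phosphomevalonate kinase, had 143, 75.8 and 81.5 CPM in HFD_TKO and 54.8, 53.7 and 47.0 in HFD_WT, against 47.7, 40.4 and 44.4 in ND_TKO and 58.2, 52.6 and 57.7 in ND_WT. With HFD, Mvk rose in TKO by 0.75 (adjusted p = 0.0064) and differed in WT by 0.20 (adjusted p = 0.28). Pmvk rose with HFD in TKO by 1.10 (adjusted p = 0.0028) and differed in WT by -0.12 (adjusted p = 0.62). Over all members the genotype by diet interaction, the log2 change with HFD in TKO minus that in WT, was called positive for 2 and negative for 5, where 28.7% of all tested genes were called, 9.94% positive and 18.8% negative. The difference between the Pmvk responses was 1.22 (SE 0.26, adjusted p = 0.0046), and it stayed called under all 20 alternatives tried, between 0.94 (without HFD_TKO replicate 1) and 1.39. For Mvk the interaction was 0.55 (adjusted p = 0.082).

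Mvd, Idi1 and Fdps carry mevalonate pyrophosphate to isopentenyl and farnesyl pyrophosphate. Mvd had 20.0, 10.2 and 10.9 CPM in HFD_TKO and 17.3, 17.3 and 12.4 in HFD_WT, against 6.14, 4.82 and 5.38 in ND_TKO and 5.44, 4.66 and 6.89 in ND_WT. No HFD library overlapped an ND library for Mvd, Idi1 or Fdps within either genotype. Their log2 changes with HFD ran from 1.02 (Idi1) to 1.21 (Fdps) in TKO and from 0.83 (Idi1) to 1.32 (Mvd) in WT, all called. Without HFD_TKO replicate 1 the TKO changes were 0.85 for Mvd, 0.75 for Idi1 and 0.85 for Fdps, still called. Idi1 averaged 75.3 ± 26.6 CPM in HFD_TKO and 64.3 ± 8.64 in HFD_WT, against 35.2 ± 2.09 in ND_TKO and 36.0 ± 6.94 in ND_WT (SD, n = 3 each).

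Squalene is made and closed into a ring by Fdft1, Sqle and Lss. Fdft1, squalene synthase, stood apart from its neighbours in the pathway, at 81.1, 78.1 and 84.3 CPM in HFD_TKO, 126, 146 and 127 in HFD_WT, 88.1, 112 and 114 in ND_TKO and 135, 139 and 98.4 in ND_WT. Its change with HFD was -0.35 in TKO (adjusted p = 0.079) and 0.11 in WT (adjusted p = 0.49). The TKO value passed in 5 of 21 alternatives, among them TMM scaling (-0.43, adjusted p = 0.046), edgeR and DESeq2. Fdft1 is the synthesis gene counted above as lower in TKO with TMM scaling. Sqle, squalene epoxidase, rose by 0.91 in TKO and 1.11 in WT, and Lss, lanosterol synthase, rose by 1.02 in TKO and 1.24 in WT. The Lss call in TKO was lost without HFD_TKO replicate 1 (0.73, adjusted p = 0.051) or ND_TKO replicate 3 (adjusted p = 0.061).

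The steps after lanosterol rose almost throughout. Cyp51, the lanosterol demethylase, Nsdhl and Hsd17b7, which remove the methyl groups next in line, and Msmo1, the methyl sterol oxidase, were called higher with HFD in both genotypes. Their changes ran from 0.77 (Msmo1) to 1.09 (Cyp51) in TKO and from 0.98 (Nsdhl) to 1.56 (Hsd17b7) in WT. Without HFD_TKO replicate 1 the TKO change was 0.74 for Cyp51, 0.60 for Msmo1 and 0.58 for Nsdhl, all still called, and 0.82 for Hsd17b7 (adjusted p = 0.074). The Hsd17b7 call in TKO was also lost without ND_TKO replicate 2 or 3, and that of Nsdhl without ND_TKO replicate 3 (adjusted p = 0.059). Tm7sf2, the sterol reductase, differed by 0.41 in TKO (adjusted p = 0.092) and 0.00 in WT (adjusted p = 1.0), and its reads may be shared with Vps51.

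The last enzymes of the pathway held both the largest and the smallest of the called rises. Dhcr7, which makes cholesterol from its immediate precursor, had 56.4, 22.8 and 27.4 CPM in HFD_TKO and 62.3, 66.7 and 39.99 in HFD_WT, against 14.9, 10.9 and 11.3 in ND_TKO and 10.7, 8.20 and 13.5 in ND_WT. It rose by 1.35 in TKO (SE 0.30, adjusted p = 0.0093) and by 2.27 in WT (SE 0.30, adjusted p = 4.9e-05), the largest change of any synthesis gene in WT. Without HFD_TKO replicate 1 the TKO rise of Dhcr7 was 0.97 and stayed called. Sc5d, the sterol desaturase, had 269, 173 and 173 CPM in HFD_TKO and 154, 152 and 131 in HFD_WT, against 81.7, 65.7 and 67.4 in ND_TKO and 96.8, 74.3 and 111 in ND_WT. Sc5d rose by 1.48 in TKO (adjusted p = 0.0010), the largest change of any synthesis gene there, and by 0.64 in WT (adjusted p = 0.0091). The WT call of Sc5d was lost with TMM scaling (adjusted p = 0.054) and in edgeR (adjusted p = 0.065). Its interaction was 0.84 (adjusted p = 0.028) and was lost in 5 of 20 alternatives, each without 1 library, with adjusted p up to 0.067. Ebp, the sterol isomerase, rose least, by 0.34 in TKO (adjusted p = 0.046) and 0.42 in WT (adjusted p = 0.0059). Both Ebp calls were lost with TMM scaling, in edgeR and in DESeq2. In TKO the Ebp call was lost in 14 of 21 alternatives, also with the replicate number as a block (adjusted p = 0.057) and without HFD_TKO replicate 1 (0.20, adjusted p = 0.13).

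**Figure D1:**
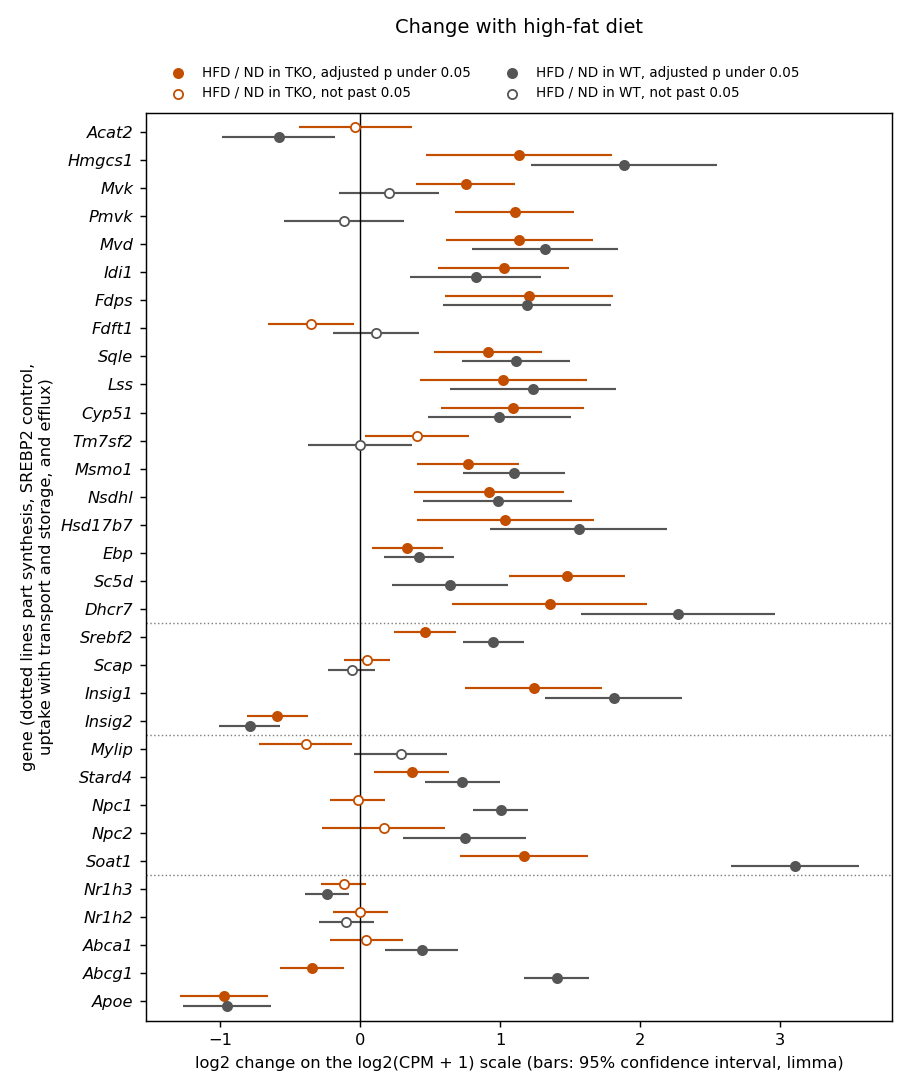
Log2 change of CPM + 1 with HFD (HFD over ND, horizontal axis) for each member in TKO and in WT mice, filled where the adjusted p is under 0.05. Bars are 95% confidence intervals computed from the limma standard error with 8 residual degrees of freedom. Synthesis genes lie mostly to the right of 0 in both genotypes, from Hmgcs1 at 1.13 in TKO and 1.88 in WT to Ebp at 0.34 and 0.42, while Apoe and Insig2 lie to the left in both.

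The SREBP2 machinery changed with diet in the same direction in both genotypes, except for Scap. Srebf2, the gene of SREBP2, had 30.9, 32.0 and 36.2 CPM in HFD_TKO and 51.9, 53.1 and 57.4 in HFD_WT, against 25.1, 24.05 and 22.0 in ND_TKO and 31.2, 25.1 and 26.4 in ND_WT. Insig1, itself a target of SREBP2, had 509, 279 and 288 CPM in HFD_TKO and 408, 392 and 312 in HFD_WT, against 167, 135 and 137 in ND_TKO and 126, 88.1 and 102 in ND_WT. Both genes lay above the matching ND group in every HFD library. Srebf2 rose with HFD by 0.46 in TKO (adjusted p = 0.0067) and 0.95 in WT (adjusted p = 5.1e-06), and Insig1 by 1.24 in TKO (adjusted p = 0.0030) and 1.81 in WT (adjusted p = 1.8e-05). Without HFD_TKO replicate 1 the TKO rise of Insig1 was 0.96 and stayed called. Insig2, the INSIG gene that does not need SREBP2, moved the other way, by -0.59 in TKO (adjusted p = 0.0022) and -0.79 in WT (adjusted p = 2.2e-05). Scap averaged 41.7 ± 2.59 CPM in HFD_TKO, 41.0 ± 1.96 in HFD_WT, 40.3 ± 2.24 in ND_TKO and 42.8 ± 1.02 in ND_WT (SD, n = 3 each). It was not called in any comparison, though in WT it was lower with HFD once scaled by TMM (-0.22, adjusted p = 0.036).

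Whether TKO and WT tissue differed in synthesis RNA was asked within each diet. On HFD, 2 of the 18 synthesis genes were higher and 2 lower in TKO than in WT, with a median of 0.09, and all 32 members gave 4 higher and 7 lower. Of all tested genes 46.7% were called in that comparison, 15.2% higher and 31.6% lower, with a median of -0.10. TMM scaling moved the median of all tested genes by 0.131 and gave 5 higher and 1 lower synthesis genes, 7 higher and 6 lower members, and 3541 higher and 3853 lower among all genes (2365 and 4923 without it). Without HFD_TKO replicate 1 all tested genes gave 2418 higher and 4366 lower, and the synthesis genes 2 higher and 5 lower. The genes called in the full set were Pmvk (0.88, adjusted p = 0.0021) and Tm7sf2 (0.68, adjusted p = 0.0042) as higher, and Fdft1 (-0.71, adjusted p = 0.00099) and Msmo1 (-0.56, adjusted p = 0.012) as lower. Pmvk, Tm7sf2 and Fdft1 stayed called under all 21 alternatives, with Pmvk at 0.59 and Tm7sf2 at 0.46 without HFD_TKO replicate 1. Msmo1 was lost in 5 of them: TMM scaling, edgeR, DESeq2, and without HFD_TKO replicate 2 or 3.

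Overlapping neighbours bear on a pair of these. Ctsb, a lysosomal protease gene that shares exon bases with Fdft1, differed by -1.28 in TKO against WT on HFD. Vps51, which shares exon bases with Tm7sf2, differed by -0.28 in the same comparison. The share of neighbouring reads in either count was not tested. On HFD Dhcr7 differed by -0.73 in TKO (adjusted p = 0.067). It was called lower without HFD_TKO replicate 1 (-1.11, adjusted p = 0.0032) or HFD_WT replicate 3 (-0.95, adjusted p = 0.034) and with the replicate number as a block (adjusted p = 0.048). Of the alternatives tried, Mvd (-0.51) and Ebp (-0.29) were called lower only without HFD_TKO replicate 1. Sc5d, Mvk and Acat2, whose HFD_TKO libraries all lay above those of HFD_WT, differed by 0.46 (adjusted p = 0.052), 0.35 (adjusted p = 0.087) and 0.41 (adjusted p = 0.076). They were called higher in 9, 6 and 5 of 21 alternatives, but not without HFD_TKO replicate 1 (0.25, 0.24 and 0.25).

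On ND, 0 of the 18 synthesis genes was called between TKO and WT by limma, with a median of -0.01 and 2 genes at an unadjusted p under 0.05. edgeR and DESeq2 each called 0 as well. Of all 32 members 3 were higher and 0 lower, where 5.7% of all tested genes were called, 2.16% higher and 3.54% lower. TMM scaling left the members at 3 and 0 and split all genes into 498 higher and 424 lower (337 and 552 without it). Hmgcs1 lay above WT in every TKO library on ND, by 0.82 (adjusted p = 0.12), and passed the test without HFD_TKO replicate 1 (adjusted p = 0.028) or ND_WT replicate 3 (1.05, adjusted p = 0.042).

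**Figure D2:**
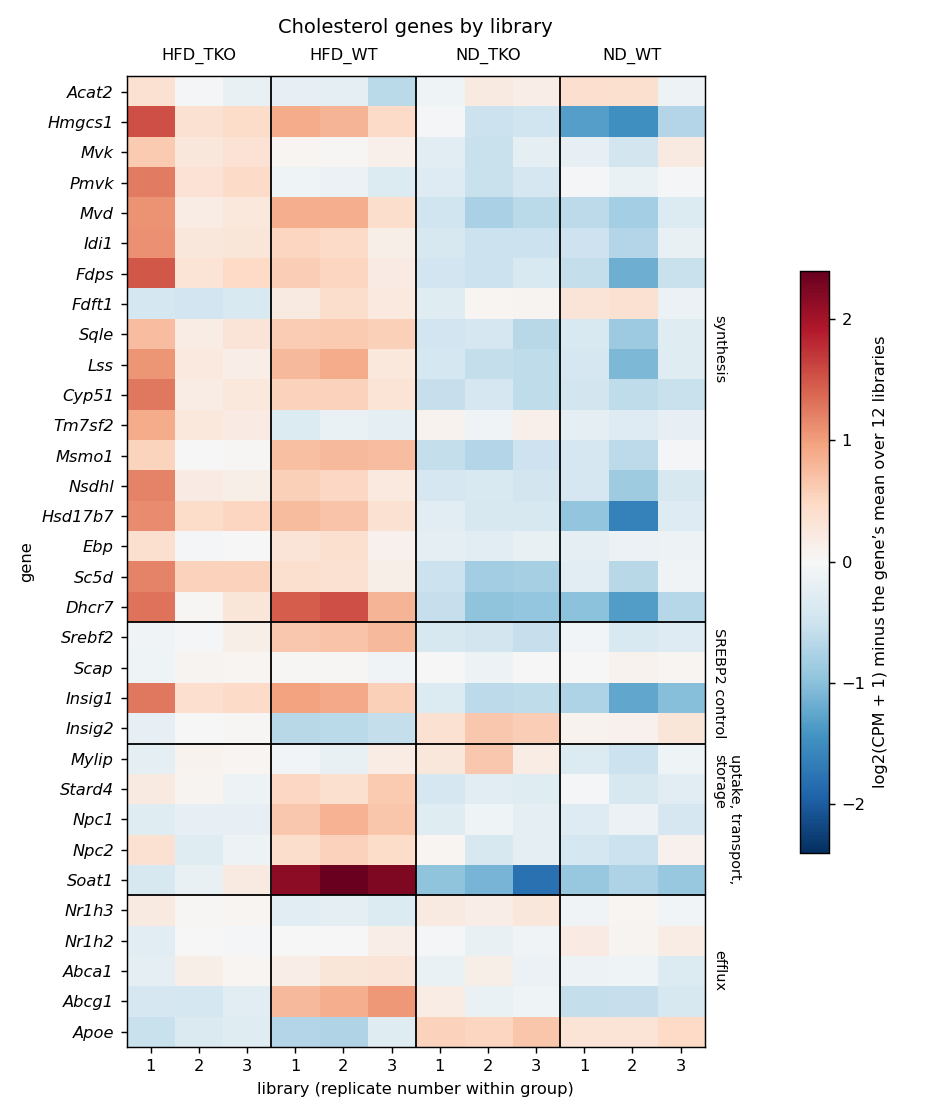
Log2(CPM + 1) of each member minus that gene's mean over the 12 libraries, with genes down the page by role and libraries across in the groups HFD_TKO, HFD_WT, ND_TKO and ND_WT. Most synthesis genes are red in both HFD groups, with exceptions such as Fdft1 in HFD_TKO and Acat2, Pmvk and Tm7sf2 in HFD_WT, and for 14 of the 18 the highest value is in HFD_TKO replicate 1, while Soat1 is deepest in the 3 HFD_WT libraries.

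Between genotypes, Srebf2 and Insig2 were the called genes of SREBP2 control. Srebf2 fell by 0.70 in HFD_TKO against HFD_WT (SE 0.10, adjusted p = 9.4e-05), with no overlap between libraries, and differed by -0.21 on ND (adjusted p = 0.23). Its interaction was -0.49 (adjusted p = 0.018). Insig2 had 74.8, 85.1 and 88.1 CPM in HFD_TKO against 54.0, 54.2 and 57.1 in HFD_WT, and 110.3, 136 and 130 in ND_TKO against 90.6, 91.8 and 106 in ND_WT. It was higher in TKO by 0.57 on HFD (adjusted p = 0.00038) and by 0.38 on ND (adjusted p = 0.041). The ND call was lost in 11 of 21 alternatives, among them each of 9 left-out libraries, with adjusted p up to 0.14. Insig1 differed by -0.10 on HFD (adjusted p = 0.75) and 0.48 on ND (adjusted p = 0.21).

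Macrophage genes moved with several of the results on transport, storage and efflux. Summed CPM of 12 macrophage markers was 1420 to 1638 in HFD_TKO and 6231 to 7005 in HFD_WT, against 809 to 1118 in ND_TKO and 986 to 1452 in ND_WT. In HFD_TKO against HFD_WT, 11 of the 12 were lower. No marker of the list was at or under 3 reads in all libraries of a group, with Adgre1 at 64.8 to 73.7 CPM in HFD_TKO and 549 to 715 in HFD_WT. Of 6 markers of lipid-laden macrophages 5 were lower in HFD_TKO, at a sum of 614 to 696 CPM in HFD_TKO and 2457 to 3410 in HFD_WT. The part of macrophage content in the Soat1, Npc1, Npc2, Abcg1 and Srebf2 results was not tested. Adipocyte markers ran the other way, with 10 of 12 higher in HFD_TKO than in HFD_WT.

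Genes of sterol transport and storage held the largest difference of the set between genotypes on HFD. Soat1, which esterifies cholesterol for storage in droplets (chromosome 1, 156424525 to 156474331, mm10), had 17.5, 20.3 and 27.2 CPM in HFD_TKO and 106, 124 and 113 in HFD_WT, against 11.4, 10.2 and 6.00 in ND_TKO and 11.9, 13.5 and 11.8 in ND_WT. The HFD_WT libraries stood far above the other 9. Soat1 fell by 2.37 in HFD_TKO against HFD_WT (SE 0.20, adjusted p = 2.0e-06), and rose with HFD by 1.17 in TKO (adjusted p = 0.0028) and 3.10 in WT (adjusted p = 1.3e-07). Its interaction was -1.93 (adjusted p = 0.00039). On ND the genotypes differed by -0.44 (adjusted p = 0.22).

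Npc1 moves cholesterol out of the lysosome together with Npc2. It had 57.2, 60.5 and 61.3 CPM in HFD_TKO and 110.1, 126 and 112 in HFD_WT, against 56.8, 65.4 and 59.0 in ND_TKO and 56.5, 63.0 and 52.6 in ND_WT. With HFD, Npc1 differed in TKO by -0.02 (adjusted p = 0.92) and rose in WT by 1.01 (adjusted p = 1.2e-06), with an interaction of -1.02 (adjusted p = 9.6e-05). On HFD it fell by 0.95 in TKO against WT (SE 0.09, adjusted p = 3.4e-06). Npc2 had 1159, 729 and 828 CPM in HFD_TKO and 1204, 1323 and 1211 in HFD_WT, against 926, 691 and 768 in ND_TKO and 671, 628 and 966 in ND_WT. The Npc2 difference on HFD was -0.49 (adjusted p = 0.054) and was called in 4 of 21 alternatives, among them without HFD_TKO replicate 1 (-0.68, adjusted p = 0.0097). With HFD, Npc2 differed in TKO by 0.17 (adjusted p = 0.57) and rose in WT by 0.75 (adjusted p = 0.0052).

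Stard4 carries sterol between membranes and is a target of SREBP2. It had 16.1, 14.3 and 12.6 CPM in HFD_TKO and 19.7, 18.1 and 21.6 in HFD_WT, against 10.2, 11.4 and 10.98 in ND_TKO and 13.2, 10.3 and 11.1 in ND_WT. Stard4 fell by 0.44 in TKO on HFD (adjusted p = 0.0084) against WT. With HFD it rose in TKO by 0.37 (adjusted p = 0.042) and in WT by 0.73 (adjusted p = 0.00021). The TKO call held in 7 of 21 alternatives. Among the others it was lost with the replicate number as a block (adjusted p = 0.058) and without HFD_TKO replicate 1 (0.29, adjusted p = 0.13). Mylip, the ubiquitin ligase IDOL that removes lipoprotein receptors and is a target of LXR, had 55.4, 68.4 and 66.0 CPM in HFD_TKO and 61.2, 56.2 and 72.3 in HFD_WT, against 77.7, 100.2 and 72.9 in ND_TKO and 50.7, 44.5 and 59.6 in ND_WT. It was higher in TKO on ND by 0.68 (adjusted p = 0.018) and differed on HFD by 0.00 (adjusted p = 0.99), with an interaction of -0.68 (adjusted p = 0.026). The ND call was lost in 4 of 21 alternatives, namely without ND_TKO replicate 2, ND_WT replicate 1 or ND_WT replicate 2 and with only the ND groups fitted, and the interaction in 5 of 20, with adjusted p up to 0.069 and 0.067.

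The efflux genes did not move as one group. Abcg1, the transporter that loads cholesterol onto HDL (chromosome 17, 31057675 to 31117988, mm10), had 66.8, 65.7 and 73.0 CPM in HFD_TKO and 153, 164 and 182 in HFD_WT, against 101, 78.9 and 82.9 in ND_TKO and 59.1, 60.1 and 67.3 in ND_WT. Its order of genotypes was opposite on the 2 diets, with no overlap on either. Abcg1 fell by 1.27 in TKO against WT on HFD (SE 0.10, adjusted p = 1.3e-06) and was higher in TKO by 0.48 on ND (adjusted p = 0.017), with an interaction of -1.75 (adjusted p = 1.3e-05). With HFD it fell in TKO by 0.34 (adjusted p = 0.030) and rose in WT by 1.40 (adjusted p = 3.2e-07). The ND call was lost without ND_TKO replicate 1, ND_WT replicate 1 or ND_WT replicate 2, or with only the ND groups fitted, with adjusted p up to 0.077. The fall in TKO was lost in 5 of 21 alternatives, with adjusted p up to 0.098, namely without HFD_TKO replicate 1 or 2, without ND_TKO replicate 1 or 3, and with only the TKO groups fitted.

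Abca1 passes cholesterol to lipid-poor apolipoprotein, and its promoter is the one printed above with an LXR element. It had 274, 358 and 334 CPM in HFD_TKO and 361, 395 and 402 in HFD_WT, against 289, 354 and 292 in ND_TKO and 296, 299.6 and 258 in ND_WT. With HFD, Abca1 differed in TKO by 0.05 (adjusted p = 0.81) and rose in WT by 0.44 (adjusted p = 0.0055). The WT rise was 0.28 with TMM scaling (adjusted p = 0.028). Between genotypes on HFD it differed by -0.27 (adjusted p = 0.072). Abca1 passed there without HFD_TKO replicate 2 (-0.35, adjusted p = 0.039) and with the replicate number as a block (adjusted p = 0.045). Its interaction of -0.39 did not pass (adjusted p = 0.088).

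Apoe had 2023, 2284 and 2393 CPM in HFD_TKO and 1805, 1777 and 2374 in HFD_WT, against 4286, 4178 and 4666 in ND_TKO and 3685, 3660.2 and 4090.3 in ND_WT. The diets were fully apart and the genotypes overlapped on HFD. Apoe fell with HFD by 0.97 in TKO (adjusted p = 0.0015) and by 0.95 in WT (adjusted p = 8.7e-05), while the genotypes differed by 0.18 on HFD (adjusted p = 0.31) and 0.20 on ND (adjusted p = 0.42). On HFD edgeR and DESeq2 called it higher in TKO (0.31, adjusted p = 0.048, and 0.30, adjusted p = 0.017).

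**Figure D3:**
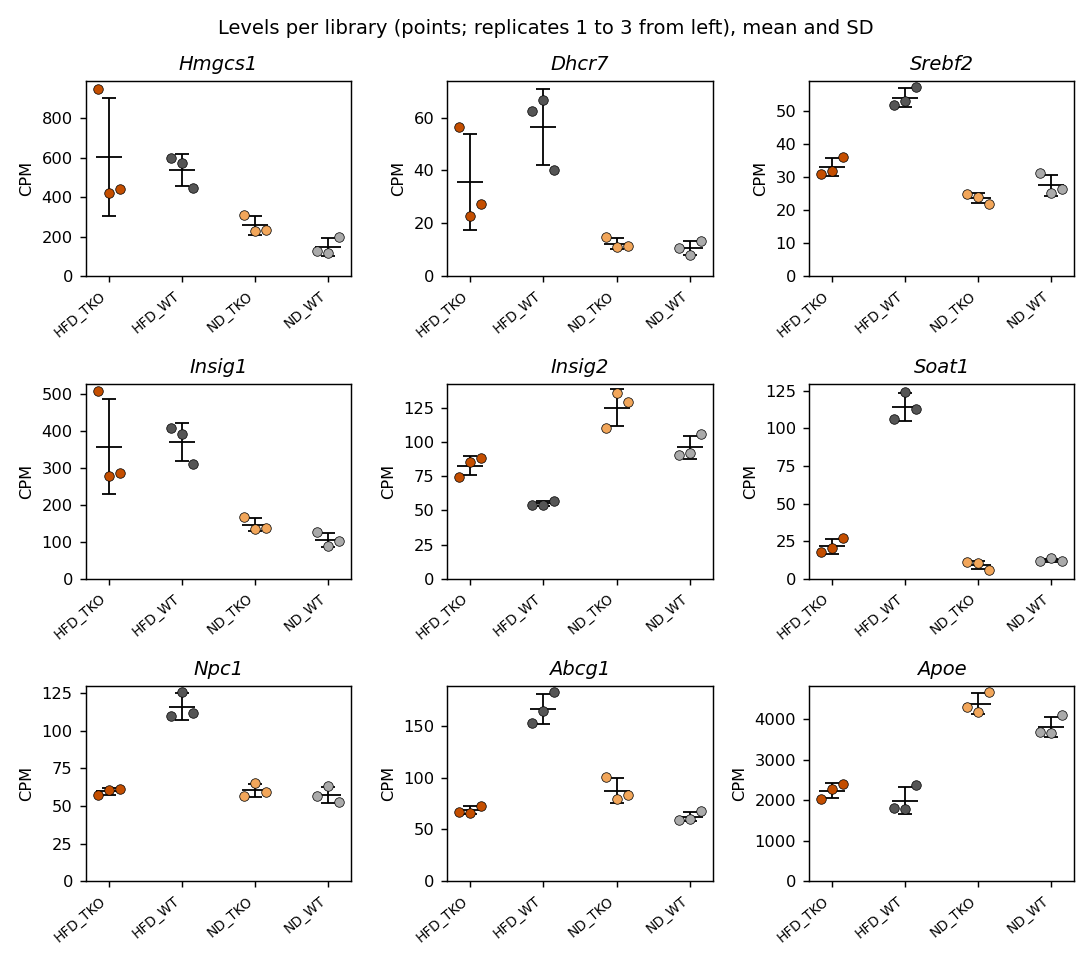
CPM per library (vertical axes, from 0) of Hmgcs1, Dhcr7, Srebf2, Insig1, Insig2, Soat1, Npc1, Abcg1 and Apoe in HFD_TKO, HFD_WT, ND_TKO and ND_WT; points are the 3 libraries of a group, horizontal lines the means and bars 1 SD. HFD_WT stands apart from the other groups for Soat1 (106 to 124 CPM), Npc1 (110.1 to 126 CPM) and Abcg1 (153 to 182 CPM), while HFD_TKO replicate 1 stands above its group for Hmgcs1 (945 CPM), Dhcr7 and Insig1.

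The LXR receptor genes gave small changes. Nr1h3, the LXRα gene, had 121, 107 and 109 CPM in HFD_TKO and 87.0, 88.5 and 83.4 in HFD_WT, against 122, 116 and 127 in ND_TKO and 98.1, 108 and 99.97 in ND_WT. It was higher in TKO on HFD by 0.37 (adjusted p = 0.00088), a call kept under all 21 alternatives, and differed on ND by 0.25 (adjusted p = 0.054). With HFD it differed in TKO by -0.12 (adjusted p = 0.24) and fell in WT by 0.24 (adjusted p = 0.011). The WT value was -0.40 with TMM scaling. Nr1h2, the LXRβ gene, averaged 38.1 ± 3.57 CPM in HFD_TKO, 42.4 ± 3.04 in HFD_WT, 38.0 ± 1.72 in ND_TKO and 45.5 ± 2.26 in ND_WT (SD, n = 3 each). It was called in no comparison, though in WT it was lower with HFD after TMM scaling (-0.26, adjusted p = 0.015).

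**Figure D4:**
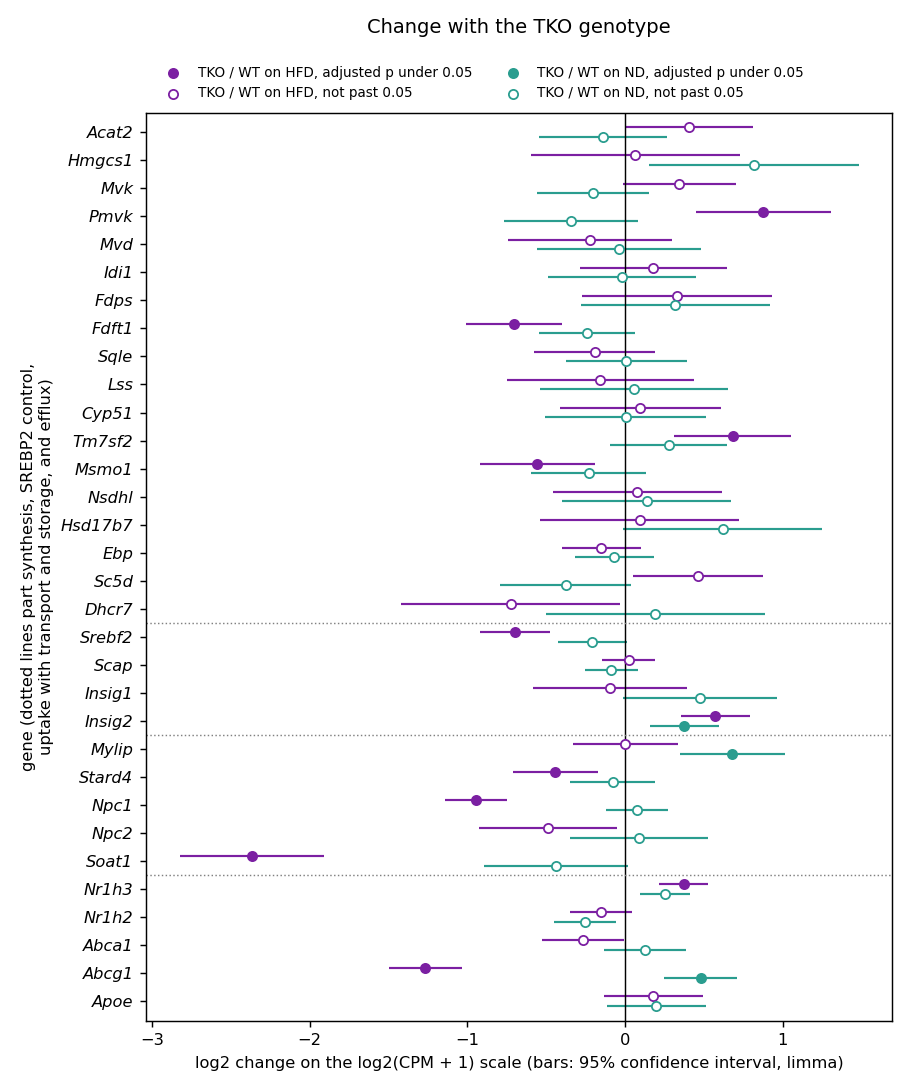
Log2 change of CPM + 1 with genotype (TKO over WT, horizontal axis) for each member on HFD and on ND, filled where the adjusted p is under 0.05. Bars are 95% confidence intervals computed from the limma standard error with 8 residual degrees of freedom. Soat1 (-2.37), Abcg1 (-1.27) and Npc1 (-0.95) lie furthest to the left on HFD, and Insig2, Mylip and Abcg1 are the filled points on ND.

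Further genes of the same pathway were counted from lists. Among 13 tested genes of uptake, transport and storage, 8 were lower and 0 higher in HFD_TKO than in HFD_WT, where 31.6% of all tested genes were lower and 15.2% higher. The macrophage markers moved the same way, 11 of 12 of them lower, and their part in the Nceh1, Lipa and Pltp values was not tested. Nceh1, which hydrolyses cholesteryl ester, differed by -2.91 (adjusted p = 3.8e-07), at 23.8 ± 5.99 CPM in HFD_TKO and 182 ± 10.1 in HFD_WT (SD, n = 3 each). Lipa, the lysosomal acid lipase, differed by -2.25 (adjusted p = 1.9e-07), at 149 ± 11.3 CPM in HFD_TKO and 714 ± 34.7 in HFD_WT (SD, n = 3 each). Of 11 further synthesis and control genes 1 was higher and 1 lower, the higher being Srebf1, the gene of the fatty acid factor SREBP1 (0.80, adjusted p = 9.1e-05). Of 10 further efflux and oxysterol genes 2 were higher and 2 lower (3 and 1 with TMM scaling), the largest being Pltp, the phospholipid transfer protein (-1.997, adjusted p = 2.0e-07).

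With HFD in TKO, 4 of the 13 uptake, transport and storage genes rose and 1 fell, led by Nceh1 (0.96) and Lipa (0.77), where 16.2% of all tested genes rose and 5.9% fell. In WT 9 rose and 0 fell, again led by Nceh1 (3.59) and Lipa (2.99), where 37.8% of all tested genes rose and 20.3% fell. The interaction was called negative for 6 of 13, where 18.8% of all tested genes were, with Nceh1 at -2.63 (adjusted p = 3.9e-05). On ND none of the further synthesis or uptake genes was called between genotypes in the main analysis. With TMM scaling 1 gene of each of these lists was higher in TKO. In the main analysis Abcg4, a sterol transporter, was higher in TKO on ND (0.79, adjusted p = 0.049). Apoc1, an apolipoprotein of the Apoe locus, was lower there (-1.02, adjusted p = 0.016).

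The synthesis and efflux arms were set against each other in each library. The efflux arm includes the LXR receptor genes Nr1h3 and Nr1h2. The measure was the mean log2(CPM + 1) of the 5 efflux genes minus that of the 18 synthesis genes. The difference was 1.17, 2.04 and 2.01 in HFD_TKO and 1.86, 1.90 and 2.30 in HFD_WT, against 2.84, 2.89 and 2.88 in ND_TKO and 2.69, 2.97 and 2.59 in ND_WT. All 6 HFD libraries lay below all 6 ND libraries, and the genotypes overlapped on HFD and on ND. The efflux mean alone, without TMM scaling, lay higher with HFD in WT, at 7.68 to 7.87 in HFD_WT and 7.64 to 7.67 in ND_WT. Group means were 7.76 and 7.65. TMM scaling shifted log2 changes with HFD in WT by a median of -0.154, so the direction of this small rise may depend on scaling. The efflux mean alone was not computed with TMM. The median log2 change of the 5 efflux genes in WT was -0.099, and -0.2575 with TMM. In TKO the unscaled efflux mean lay lower with HFD, at 7.45 to 7.59 in HFD_TKO and 7.78 to 7.84 in ND_TKO. Summed synthesis RNA was 2417, 1303 and 1343 CPM in HFD_TKO and 1640, 1632 and 1313 in HFD_WT, against 922, 844 and 858 in ND_TKO and 844, 747 and 883 in ND_WT. Summed efflux RNA, set mostly by Apoe, was 2519 to 2948 CPM in HFD_TKO and 2446 to 3087 in HFD_WT, against 4762 to 5206 in ND_TKO and 4170.3 to 4562 in ND_WT. These means and sums are descriptions and carry no test.

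**Figure D5:**
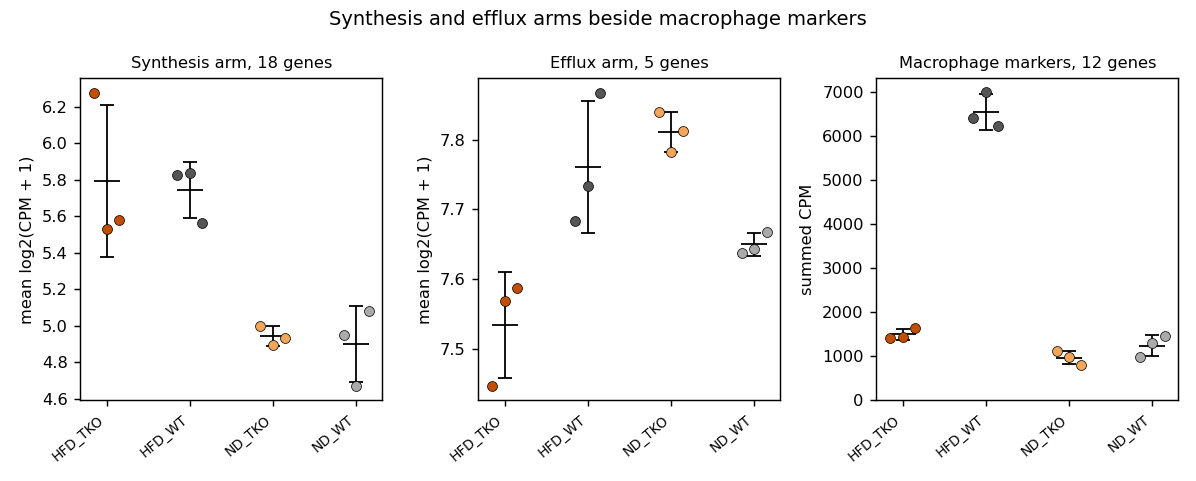
Points are libraries in HFD_TKO, HFD_WT, ND_TKO and ND_WT (3 each), horizontal lines the group means and bars 1 SD. The left and middle panels give the mean log2(CPM + 1) of the 18 synthesis genes and of the 5 efflux genes, and the right panel the summed CPM of 12 macrophage markers. Synthesis means lie between 5.53 and 6.27 in HFD_TKO and between 5.56 and 5.84 in HFD_WT, above all ND libraries. Efflux means, not scaled by TMM, are 7.68 to 7.87 in HFD_WT against 7.64 to 7.67 in ND_WT. In TKO they are 7.45 to 7.59 in HFD_TKO against 7.78 to 7.84 in ND_TKO. The macrophage sum is high in HFD_WT (6231 to 7005 CPM).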

How the data were processed

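Total RNA of eWAT was extracted with a Purelink RNA Micro kit, per the labels' protocols. Per the submitters' processing notes, the tools named are STAR 2.7.3a, featureCounts 2.0.0 and DESeq2, on the mouse build mm10. The deposited values are CPM per gene for 12 libraries, made by the authors with a small offset of 0.01 reads, and 3 of 25232 rows carry no symbol (0.0313 to 0.0679% of CPM) and were left out. Whole reads could be recovered for 100% of values in every library within a tolerance of 0.05 reads. Between libraries of 1 group, counts differed beyond sampling noise (chi-square per degree of freedom 6.04 to 69.6), so none was counted as a duplicate.

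Members and gene lists were chosen with earlier results of these data known. Every member may be named, with at most 5 called genes of the largest change from each further list per comparison and Adgre1, Cd68, Trem2, Adipoq and Plin1 from the marker lists. Tet1 to Tet3, Acat3, Ctsb and Vps51 were added for label and overlap checks after their values were seen. Genes with at least 0.5 CPM in at least 3 libraries were fitted as log2(CPM + 1) in limma 3.58.1 (R 4.3.3) with a trended prior, one mean per group and 8 residual degrees of freedom, with Benjamini-Hochberg adjustment over 15597 genes and two-sided tests. Changes of low genes are understated on this scale. The 5 comparisons were TKO over WT on each diet, HFD over ND in each genotype, and their interaction. Alternatives were edgeR 4.0.16 (quasi-likelihood) and DESeq2 1.42.0 on recovered reads, TMM-scaled CPM, pseudocounts of 0.25 and 5 CPM, no filter or 2 CPM, only the groups compared, the replicate number as a block, and each library left out. The script was tested on simulated data.

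The labels give the groups the same replicate numbers without saying what a number marks. Deviations from the group means of same-numbered libraries correlated at 0.392, 0.562 and 0.123 between HFD_TKO and ND_TKO, so the numbers were taken to pair these groups, from the data and not from the labels. The other comparisons did not meet that rule.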

Additional observations from a re-analysis of the deposited data

Results flagged for a closer look

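The response to diet differed between TKO and WT for 7 members by a direct test of that difference, given as the log2 change in TKO minus that in WT. It was positive for Pmvk (1.22, adjusted p = 0.0046) and Sc5d (0.839, adjusted p = 0.028). Negative values were found for Srebf2 (-0.491, adjusted p = 0.018), Mylip (-0.679, adjusted p = 0.026), Npc1 (-1.02, adjusted p = 9.6e-05), Soat1 (-1.93, adjusted p = 0.00039) and Abcg1 (-1.75, adjusted p = 1.3e-05). Of all tested genes 28.7% were called in this test, 9.94% positive and 18.8% negative, against 2 positive and 5 negative of 32 members. Pmvk, Srebf2, Npc1, Soat1 and Abcg1 stayed called under all 20 alternatives, while Sc5d and Mylip were called under 15 of them. Without HFD_TKO replicate 1, Hmgcs1 (-1.13), Dhcr7 (-1.30), Insig1 (-0.85) and Npc2 (-0.77) were called as well, with adjusted p from 0.011 to 0.032, and Mylip was not (-0.59, adjusted p = 0.055). For 11 of 12 macrophage markers the same test was called negative, and their part in these values was not tested.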

How the results depend on the processing

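No member called in the main analysis changed sign under any alternative. Over members and settings, the side of the threshold was kept for 634 of the values for TKO against WT on HFD (33 passed only then, 5 were lost). It was kept for 646 on ND (7 and 19) and 622 for HFD in TKO (9 and 41). For HFD in WT it was kept for 656 (8 and 8), and for the interaction for 620 (10 and 10). Values called in neither fit counted as kept whatever their direction. Some of these changed sign, such as Hmgcs1 in TKO against WT on HFD (-0.31 to 0.32). On ND the count of all genes called between genotypes was 889, against 1400 with DESeq2 and 280 with only the ND groups fitted, where 0 members were called in place of 3; the cause was not tested. Leaving out each library in turn gave 0 to 6 members and 350 to 1853 genes on ND, 11 to 15 members and 6103 to 7813 genes on HFD, 15 to 24 members and 1716 to 4296 genes for HFD in TKO, 24 to 27 members and 7897 to 9343 genes for HFD in WT, and 5 to 10 members and 3541 to 5041 genes for the interaction. Efflux minus synthesis changed with HFD in WT by -0.73 as the difference of arm means and by -0.27 with medians over the genes of each arm; the cause was not tested. With the replicate number as a block, members called were 16 for TKO against WT on HFD (11 without), 3 on ND (3), 20 for HFD in TKO (22), 25 for HFD in WT (25) and 8 for the interaction (7). All genes called under the block were 7114, 751, 3162, 8921 and 4228 in that sequence. In the comparison taken as paired, HFD in TKO, the block ended the Ebp and Stard4 calls, changed no other member's call, and every library (6 of 6) correlated best with its own number. The block put one shared effect per number on all 12 libraries, also in the WT groups, and a fit of the TKO pairs alone was not run. The reported values for HFD in TKO come from the fit without the block. Elsewhere the libraries share only a number: own-number correlations ran from -0.34 to 0.208 between the HFD groups, -0.497 to -0.0312 between the ND groups and -0.36 to -0.0207 between the WT groups, and 2, 0 and 0 of 6 libraries correlated best with their own number. Depth limits low genes, since 3 reads equal at most 0.143 CPM. Intervals rest on 3 libraries per group, with a spread for each gene estimated over all 4 groups. They are wide for genes in which HFD_TKO replicate 1 stands apart.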
